A study of Homo sapiens with 30 samples.

Results

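The difference between the exposure response of RSRP1-knockout and wild-type A549 cells was measured for every expressed gene, as the exposed minus unexposed difference in the knockout less the same difference in the wild type. A549 is an established human lung adenocarcinoma line, and RSRP1 encodes a small protein rich in arginine and serine. The 24 libraries used, of 30 in the series, form 8 groups of 3: the genotypes labelled RSRP1 KO (KOA in the sample titles) and WT (WTA), each exposed (EX, a magnetic exposure labelled 2 H) or not exposed (NE), each without and with the title part D3. All 24 carry the title part iR. Neither iR nor D3 is explained in the sources used here, so both are kept as names, and D3 was averaged over. The kind of edit and the number of knockout clones are not given either, so loss of RSRP1 and other differences between these lines cannot be told apart. The labels do not say that the 3 libraries of a group were grown separately, and the p-values reflect only how far such libraries scatter, which may be technical scatter.

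Values are FPKM, fragments per kilobase of transcript scaled to each library's mapped fragments, and were tested as log2(FPKM + 1). Differences are given on that scale, which understates changes of genes near 0. In the text, a gene was called when its adjusted p from limma, a linear model fitted to all 12086 expressed genes at once, was under 0.05. "Higher in the knockout" means that the exposure difference was more positive there, whatever its sign.

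Cells read mechanical and chemical stress through several short relays. In the Hippo relay, the kinases LATS1 and LATS2 keep the coactivators YAP and TAZ out of the nucleus, and when they are released these bind TEAD factors and raise genes such as CCN1, CCN2 and ANKRD1. LATS2, AMOTL2 and AJUBA are themselves among the raised genes and act back on the relay. Immediate early genes, such as the JUN family, respond within a short time of many stimuli without new protein synthesis. The unfolded protein response and the CHOP branch of the integrated stress response answer misfolded protein and halted translation.

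TEAD factors bind the letters GGAATG, and the windows of the 3 called YAP and TEAD targets that hold them are shown because this list held the highest share of genes higher in the knockout. Each is the 250 bases before the RefSeq start of transcription in GRCh38.p14, 5′ to 3′ on the gene's strand, with GGAATG or its reverse complement CATTCC in capitals.
CCN2, chr6:131951373-131951622, minus strand: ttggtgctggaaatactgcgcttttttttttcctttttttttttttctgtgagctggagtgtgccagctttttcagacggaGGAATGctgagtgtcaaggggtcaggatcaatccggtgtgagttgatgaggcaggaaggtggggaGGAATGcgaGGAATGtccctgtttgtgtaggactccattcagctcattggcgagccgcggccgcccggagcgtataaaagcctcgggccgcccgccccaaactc
ANKRD1, chr10:90921088-90921337, minus strand: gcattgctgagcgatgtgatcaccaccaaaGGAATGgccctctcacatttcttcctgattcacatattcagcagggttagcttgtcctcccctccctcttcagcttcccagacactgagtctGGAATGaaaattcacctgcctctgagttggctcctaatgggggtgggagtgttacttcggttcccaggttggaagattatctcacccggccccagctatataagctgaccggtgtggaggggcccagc
PTPN14, chr1:214551603-214551852, minus strand: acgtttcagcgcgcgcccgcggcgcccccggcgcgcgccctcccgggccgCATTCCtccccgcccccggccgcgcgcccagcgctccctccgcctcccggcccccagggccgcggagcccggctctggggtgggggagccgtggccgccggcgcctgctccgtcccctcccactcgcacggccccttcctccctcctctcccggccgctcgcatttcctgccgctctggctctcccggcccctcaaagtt

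CCN2 held 3 matches, 169, 104 and 95 bases before its start, ANKRD1 held 2 and PTPN14 held 1. AMOTL2, AJUBA and LATS2 had none in this window, and CCN1 and DLC1 were not in the sequence table. Counting both strands, GGAATG stood in 11.9% of the 27305 windows of the whole table and in 911 of 9885 windows of tested genes (9.22%). It stood in 34 of 196 windows of genes higher in the knockout (17.3%) and in 14 of 235 windows of genes lower there (5.96%). Of the YAP and TEAD targets, 5 of 15 windows of tested genes held it (33.3%) and 3 of 6 windows of called genes. Another motif, TCACNCCAC with N any base, was looked for in the cholesterol list described below. It stood in 0 of 4 windows of called genes there and in 1 of 26 of tested genes (3.85%). Among all tested genes it stood in 0.84%, among those higher in the knockout in 0.51% and among those lower in 1.7%. These shares are descriptions of letters, not of binding, and no test was made of them.

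RSRP1 (NCBI gene 57035, chromosome 1, 25242249 to 25338254) ran from 5.80 to 7.95 FPKM in the 12 knockout libraries and from 37.4 to 63.4 FPKM in the 12 wild-type libraries, so every library matched its label. Its own transcript rose on exposure in the wild type. Unexposed wild-type libraries held 48.5, 48.6 and 49.8 FPKM and exposed ones 62.0, 63.4 and 63.3 FPKM. With D3 the unexposed wild type held 37.4, 41.7 and 37.4 FPKM and the exposed 53.4, 59.9 and 53.6 FPKM, with no overlap in either pair. In the knockout it went from 7.45 to 7.95 FPKM unexposed to 5.80 to 6.84 FPKM exposed, and with D3 from 5.84 to 6.33 FPKM to 6.46 to 7.21 FPKM, a small fall and a small rise. The mean rise in the wild type was 0.43, against -0.06 in the knockout (limma adjusted p = 0.243), and the difference between them was -0.49 ± 0.059 (SE, limma adjusted p = 7.06e-06).

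Of the 12086 genes tested, 535 (4.43%) differed in their exposure response between the genotypes, with 239 higher in the knockout (1.98%) and 296 lower (2.45%). Most of the differences were small. The median absolute difference among the 535 was 0.26, 33 reached 0.5 and 2 reached 1, namely TGFB2-AS1 and IL21R. Exposure itself changed many more genes in each genotype, 6416 in the knockout (53.1%) and 5979 in the wild type (49.5%), and across genes, which are not independent replicates, the exposure differences of the genotypes correlated at Pearson r = 0.826. The genotypes already differed in 9212 genes (76.2%) without exposure, so most responses started from unequal levels.

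**Figure D1:**
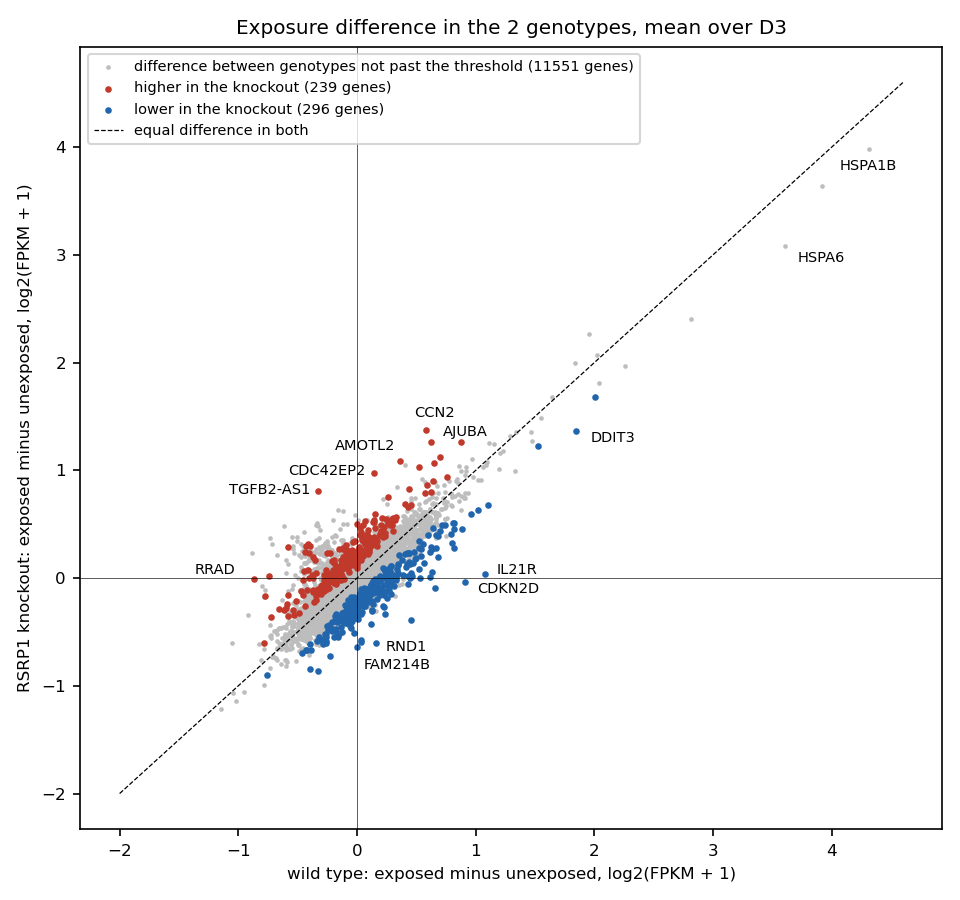
Exposed minus unexposed difference of each of the 12086 genes in the wild type (x axis) and in the RSRP1 knockout (y axis), both as log2(FPKM + 1) averaged over D3, with the genes higher in the knockout in red (239) and lower in blue (296). Most genes follow the dashed line of equal difference, and the heat shock genes HSPA1B and HSPA6 lie far out along it without passing the threshold.

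The 3 largest exposure responses in the wild type, of HSPA1B, HSPA1A and HSPA6, did not differ between genotypes beyond the threshold. HSPA1A and HSPA1B are near-identical copies and may have exchanged reads. HSPA1B, a stress-induced HSP70 chaperone, rose by 3.98 in the knockout and 4.32 in the wild type, and their difference of -0.33 ± 0.159 did not pass (limma adjusted p = 0.265). HSPA6, another HSP70 gene that is nearly silent without stress, went from 0.0499 ± 0.0241 to 10.3 ± 2.23 FPKM in the knockout and from 0.0192 ± 0.0175 to 19.0 ± 2.43 FPKM in the wild type (SD, n = 3, without D3). With D3 the exposed knockout, at 8.06, 5.99 and 4.16 FPKM, and the exposed wild type, at 8.60, 6.44 and 5.39 FPKM, overlapped. Its difference of -0.53 had an adjusted p of 0.0538 in limma, just outside the threshold, and the adjusted p fell under it in 9 of the alternative settings tried and was 0.505 with limma-voom. Among 34 heat shock chaperones tested, 27 rose in the knockout (19.5% of all genes did) and 26 in the wild type (17.7% of all genes). Of the 34, 1 was lower in the knockout (2.94%, close to the 2.45% of all genes) and 0 were higher. Across the alternative settings 1 to 5 were lower and 0 to 1 higher. The lower gene was DNAJB1, a J-protein partner of HSP70, which rose by 1.68 and 2.00, a difference of -0.33 (limma adjusted p = 0.00495).

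The 239 genes higher in the knockout fell into several patterns. For 65 the exposure raised the gene in the knockout and did not pass in the wild type, 64 rose in both and more in the knockout, 54 fell in the wild type and did not pass in the knockout, 30 fell in both and less in the knockout, and 26 rose in the knockout and fell in the wild type. Of the 296 lower in the knockout, 107 fell in the knockout and did not pass in the wild type, 65 rose in the wild type and did not pass in the knockout, 51 fell in both, 50 rose in both and 23 fell in the knockout and rose in the wild type. The absolute response was the larger in the knockout for 314 of the 535 and in the wild type for 221. Non-coding genes were 6.92% of the called genes and 7.74% of all tested.

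The YAP and TEAD targets held the highest share of genes higher in the knockout among the lists examined. Lists and members were chosen with earlier results of these data known, so the ranking and the shares are descriptions and not a test. Of 20 tested, 8 were higher (CCN2, AMOTL2, AJUBA, LATS2, CCN1, ANKRD1, DLC1 and PTPN14) and 0 lower, beside 1.98% higher and 2.45% lower among all genes tested, at a list median of 0.12 against 0.00052 over all genes. DLC1 is nearly silent in the wild type, and without it the count was 7 of 19. Across the alternative settings, 7 to 9 were higher and 0 lower. The coactivators themselves, YAP1 at -0.06 and WWTR1 (TAZ) at -0.04, did not pass (limma adjusted p = 0.675 and 0.766), nor did TEAD1 at 0.13 (limma adjusted p = 0.112).

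CCN2 (NCBI gene 1490, chromosome 6, 131948176 to 131951372) encodes a secreted matricellular growth factor. Without D3 its unexposed levels were alike, at 1.45, 1.43 and 1.51 FPKM in the wild type and 1.46, 1.30 and 1.91 FPKM in the knockout. The exposed wild type held 3.03, 2.58 and 3.28 FPKM and the exposed knockout 4.73, 4.59 and 4.75 FPKM. All 3 exposed knockout libraries stood above all 3 exposed wild-type libraries, from a shared start. With D3 the wild type went from 2.47, 2.31 and 2.51 to 3.57, 3.77 and 3.97 FPKM and the knockout from 2.29, 2.13 and 2.32 to 8.62, 9.00 and 8.71 FPKM. The pooled rise was 1.38 in the knockout and 0.58 in the wild type, a difference of 0.80 ± 0.074 (SE, limma adjusted p = 8.62e-08), and it passed in both arms of the design, at 0.48 without D3 and 1.12 with it.

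AMOTL2, a junction protein that binds YAP, and AJUBA, a LIM protein that restrains the LATS kinases, started lower in the knockout. AMOTL2 (NCBI gene 51421, chromosome 3, 134355345 to 134375417) held 6.63, 7.44 and 8.59 FPKM in the unexposed knockout and 14.7, 13.9 and 13.4 FPKM in the unexposed wild type. After exposure the knockout held 15.6, 18.3 and 18.1 FPKM and the wild type 18.3, 19.1 and 21.2 FPKM, so the genotypes stood far apart before exposure and next to each other after it, still without overlap. With D3 the exposed knockout, at 18.3, 19.1 and 16.9 FPKM, and the exposed wild type, at 17.7, 21.2 and 17.4 FPKM, overlapped. The difference of the responses was 0.73 ± 0.076 (SE, limma adjusted p = 6.88e-07).

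AJUBA (NCBI gene 84962, chromosome 14, 22971177 to 22982551) rose from 7.15, 7.24 and 8.28 to 18.2, 16.1 and 17.2 FPKM in the knockout and from 20.9, 18.4 and 20.5 to 34.1, 31.6 and 28.5 FPKM in the wild type. These are the libraries without D3, and in them every exposed knockout library lay below every exposed wild-type library. The rise was 1.26 in the knockout and 0.62 in the wild type, a difference of 0.64 ± 0.060 (SE, limma adjusted p = 9.00e-08).

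LATS2 rose by 0.75 in the knockout and 0.26 in the wild type (limma adjusted p of the difference = 2.16e-05). The difference was 0.33 without D3 and 0.65 with it, and the change between the arms did not pass. With D3 the exposed knockout held 5.38, 5.13 and 4.96 FPKM and the exposed wild type 4.00, 4.22 and 3.71 FPKM. CCN1, the matricellular relative of CCN2, rose by 1.12 and 0.70 (difference limma adjusted p = 0.00958), from unexposed levels of 3.34, 3.39 and 3.82 FPKM in the knockout and 14.7, 12.9 and 14.7 FPKM in the wild type. Its exposed means stayed lower in the knockout, at 10.8 against 31.4 FPKM without D3 and 6.77 against 20.6 FPKM with it. ANKRD1, a nuclear ankyrin-repeat protein, rose by 1.26 and 0.88. PTPN14, a phosphatase that binds YAP, rose by 0.49 and 0.28. Exposed means of both also stayed lower in the knockout. Without D3 they were 3.43 against 6.11 FPKM for ANKRD1 and 3.24 against 6.83 FPKM for PTPN14. With D3 they were 3.11 against 4.78 FPKM and 3.20 against 5.68 FPKM. DLC1, a GTPase-activating protein, ran from 2.72 to 3.75 FPKM in the knockout, where it rose by 0.24, and from 0.0609 to 0.171 FPKM in the wild type, a level at which this scale shows almost no response. DLC1 entered the test only through its level in the knockout, and limma-voom, which compares ratios, did not call it (adjusted p = 0.227).

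**Figure D2:**
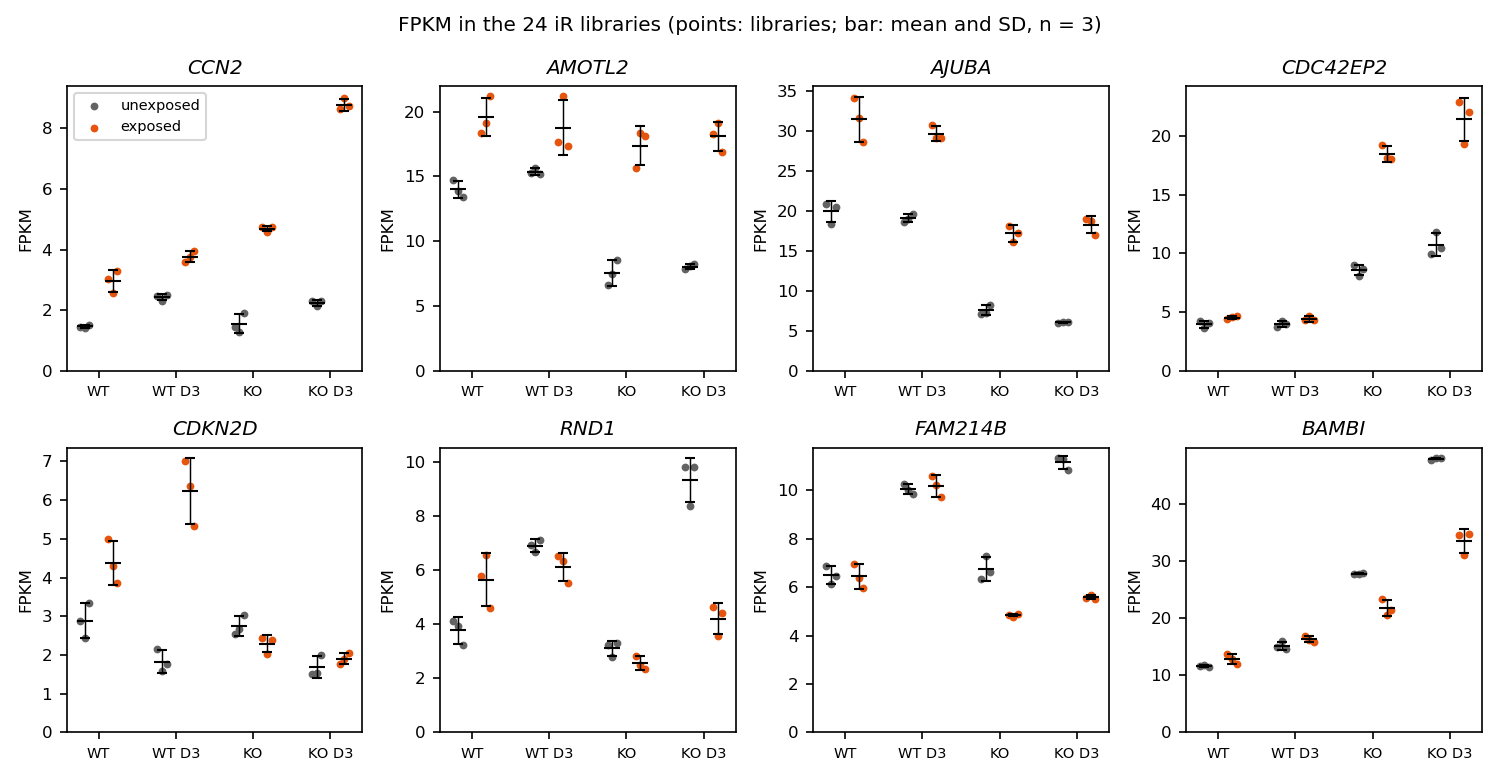
FPKM (y axis) of 8 genes in the 24 libraries, by genotype and D3 (x axis), grey unexposed and orange exposed, each point 1 library and each bar the mean with its SD (n = 3). In the upper row the exposed points rise further above the unexposed in the knockout, except for AJUBA without D3. Its means there went from 7.55 to 17.2 FPKM in the knockout and from 19.9 to 31.4 FPKM in the wild type. CCN2 with D3 reaches 9.00 FPKM in the knockout and 3.97 in the wild type. In the lower row CDKN2D rises in the wild type while FAM214B and BAMBI fall in the knockout.

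Secreted factors, which the series title places in the axis under study, were mostly higher in the knockout where they differed. Of 36 tested, 8 were higher (22.2%, against 1.98% of all genes) and 1 was lower (2.78%, close to the 2.45% of all genes), at a median of 0.10. The 8 hold CCN1 and CCN2 again, with CCL2, TGFB2, CXCL1, CXCL8, CXCL5 and CSF1, so this list and the YAP list are not separate. The lower gene was IL11, an IL6-family cytokine, which rose by 0.41 in the knockout and 0.79 in the wild type. Its group means were 0.840 to 2.12 FPKM in the knockout, where this scale understates changes, and 17.0 to 39.3 FPKM in the wild type. Limma-voom did not call IL11 (-0.11, adjusted p = 0.787). With 0.1 or 0.5 added to FPKM in place of 1, 0 secreted factors were lower.

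CCL2, the monocyte chemoattractant, fell in the wild type and did not pass in the knockout (0.02 against -0.74, difference limma adjusted p = 0.00078). In the wild type it went from 30.2, 28.0 and 28.4 to 19.6, 19.3 and 25.4 FPKM, and with D3 from 32.1, 28.3 and 23.7 to 13.6, 11.8 and 13.2 FPKM. In the knockout it was low throughout, at 6.76, 4.20 and 6.42 FPKM before and 7.07, 7.41 and 7.55 FPKM after exposure, and with D3 at 5.92, 4.56 and 5.92 FPKM before and 3.45, 5.09 and 4.42 FPKM after. Within each arm, without D3 and with it, the exposed wild-type libraries lay below the unexposed ones. In the knockout the exposed libraries lay above the unexposed ones without D3 and overlapped them with D3.

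TGFB2, a TGF-beta ligand, showed the other pattern. It rose in the knockout from 9.24 ± 0.205 to 12.2 ± 1.08 FPKM, and with D3 from 10.8 ± 0.419 to 17.1 ± 1.01 FPKM, while the wild type stood at 17.5 ± 0.527 and 17.9 ± 0.949 FPKM without D3 and at 13.7 ± 0.862 and 14.4 ± 0.983 FPKM with it (SD, n = 3). The difference was 0.44 ± 0.056 (SE, limma adjusted p = 1.70e-05). The antisense transcript TGFB2-AS1, which overlaps it, differed most of all, at 1.14 ± 0.204 (limma adjusted p = 0.00121), from 17 to 93 reads per library. Whether the authors counted by strand is not given, so reads of this pair cannot be told apart.

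Among 24 NF-kB targets tested, 4 were higher in the knockout (16.7%, against 1.98% of all genes) and 0 lower: CCL2, CXCL1, CXCL8 and PTGS2. CCL2, CXCL1 and CXCL8 were already counted among the secreted factors, so these lists are not separate either. The count of 4 was 8 without exposed wild-type D3 replicate 3 and 6 without unexposed knockout replicate 1. CXCL1, a neutrophil chemokine, fell in the wild type (-0.38) and did not pass in the knockout (0.03), where opposite arms were averaged. Without D3 the knockout held 9.57, 10.1 and 9.31 FPKM before and 13.7, 13.1 and 12.7 FPKM after exposure. With D3 it held 10.5, 12.0 and 9.61 FPKM before and 6.76, 9.36 and 8.42 FPKM after, and neither pair overlapped. PTGS2, the inducible cyclooxygenase, rose in the knockout by 0.53 and did not pass in the wild type (0.07), and the knockout held 28.5, 28.1 and 25.8 FPKM before and 31.8, 37.1 and 29.4 FPKM after exposure without D3, and 25.9, 26.9 and 28.8 FPKM before and 51.0, 46.9 and 47.5 FPKM after it with D3. Its genotype difference passed with D3 (0.62) and not without it (0.30, limma adjusted p = 0.221), and the change between the arms did not pass (limma adjusted p = 0.917). CXCL8 was the weakest of the 4 (limma adjusted p = 0.0414) and missed the threshold in 20 alternative settings.

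TGF-beta signalling genes were split, 3 higher and 3 lower of 23 (13.0% each way, against 1.98% and 2.45% of all genes), and 4 and 6 without exposed wild-type D3 replicate 3. Beside TGFB2, which was also counted among the secreted factors, the inhibitor of differentiation ID2 and the receptor-regulated SMAD3 were higher. BAMBI, a decoy receptor for the TGF-beta family, and the repressors SKI and TGIF1 were lower.

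BAMBI (NCBI gene 25805, chromosome 10, 28677521 to 28682932) moved in opposite directions. In the knockout it fell from 27.8, 27.8 and 27.9 to 23.3, 20.6 and 21.4 FPKM, and with D3 from 47.8, 48.0 and 48.0 to 34.6, 31.1 and 34.8 FPKM. In the wild type it went from 11.7, 11.8 and 11.4 to 13.7, 12.8 and 12.0 FPKM, and with D3 from 15.0, 15.9 and 14.6 to 17.0, 16.2 and 15.9 FPKM. The fall in the knockout was complete in both arms, with no overlap, and the rise in the wild type was small. The changes were -0.42 and 0.12, a difference of -0.54 ± 0.048 (SE, limma adjusted p = 4.02e-08).

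Immediate early genes leaned the other way from the YAP targets. Of 31 tested, 10 were lower in the knockout (32.3%, against 2.45% of all genes) and 3 higher (9.68%, against 1.98%), at a median of -0.05. The lower ones were JUNB, JUN and JUND, subunits of AP-1, NR4A2, a nuclear receptor, IER2, BHLHE40, the phosphatase DUSP6, the RNA-binding ZFP36L1 and ZFP36L2, and BTG1. The higher ones were DUSP1, FOSL2 and ATF3. Without D3, 0 were higher and 3 lower, where 0.273% and 0.265% of all genes were, and with D3 5 were higher and 5 lower, where 1.24% and 1.14% were. Among these genes the change between the arms passed for NR4A1 and DUSP1.

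BHLHE40, a transcriptional repressor tied to the circadian clock, had the smallest p of these (limma adjusted p = 2.39e-08). It rose from 45.9, 44.6 and 45.3 to 95.4, 99.4 and 96.5 FPKM in the wild type and from 84.1, 80.4 and 86.8 to 123, 122 and 117 FPKM in the knockout. With D3 the wild type went from 60.9, 62.4 and 62.0 to 72.1, 77.2 and 70.1 FPKM, while the knockout held 112, 109 and 113 FPKM before and 114, 113 and 113 FPKM after. The exposed and unexposed wild-type libraries never overlapped, and the knockout with D3 hardly moved. JUNB rose from 13.4 ± 0.445 to 28.3 ± 3.17 FPKM in the wild type and from 7.53 ± 0.596 to 11.1 ± 0.995 FPKM in the knockout (SD, n = 3, without D3).

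In the unfolded protein response and ER degradation list, 28 of 32 rose in the knockout (19.5% of all genes did) and 27 in the wild type (17.7% of all genes). Of the 32, 3 differed, all lower in the knockout (9.38%, against 2.45% of all genes): XBP1, FICD and SYVN1. Across the alternative settings 1 to 6 were lower, the 6 without exposed wild-type replicate 3, and 0 to 2 higher. XBP1, a central transcription factor of this response, rose by 0.63 in the knockout and 1.02 in the wild type (difference limma adjusted p = 0.00817). FICD and SYVN1 stood near the threshold (limma adjusted p = 0.0353 and 0.0277) and missed it in 18 and 9 alternative settings.

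DDIT3, which encodes CHOP, went from 8.63, 7.38 and 8.79 to 42.7, 40.3 and 29.6 FPKM in the wild type and from 9.28, 8.69 and 9.51 to 32.8, 26.3 and 27.1 FPKM in the knockout. With D3 the exposed wild type held 20.2, 18.0 and 20.1 FPKM and the exposed knockout 13.4, 13.6 and 14.5 FPKM. Exposed groups overlapped without D3 and not with it, and the pooled difference was -0.48 ± 0.114 (SE, limma adjusted p = 0.0127). SESN2, a stress-induced regulator of mTORC1, rose by 0.45 in the knockout and 0.88 in the wild type. ATF3, in the same list of 26 and also counted among the immediate early genes, went the other way at 0.34 (limma adjusted p = 0.0254), from levels under 2 FPKM in each group.

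Cholesterol genes differed in 1 direction. Of 35 tested, 7 were lower in the knockout, among them MVD, MVK, HSD17B7, LSS and SQLE, and 0 were higher, beside 2.45% lower and 1.98% higher among all genes, and 30 of the 35 differences were negative, at a median of -0.11. The individual differences were small and near the threshold: 3 to 12 were lower across the alternative settings (12 without exposed wild-type D3 replicate 3, and 3 or 4 without exposed knockout D3 replicate 2, unexposed knockout D3 replicate 1, unexposed knockout replicate 3, exposed wild-type D3 replicate 2, unexposed wild-type D3 replicate 3, exposed wild-type replicate 2 or unexposed wild-type replicate 2). In the arm without D3 alone 0 were lower, where 0.265% of all genes were. In the arm with D3 alone 2 were lower, where 1.14% of all genes were. MVD, a mevalonate-pathway decarboxylase, went in the wild type from 19.8, 18.6 and 19.9 to 24.5, 23.5 and 22.9 FPKM and in the knockout from 13.5, 14.0 and 13.2 to 13.4, 10.8 and 13.7 FPKM. It rose in the wild type (0.25) and did not pass in the knockout (-0.12). SQLE, the squalene epoxidase, rose in both and less in the knockout, at 0.22 against 0.35. SREBF2, a transcription factor of the pathway, did not pass (limma adjusted p = 0.171).

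**Figure D3:**
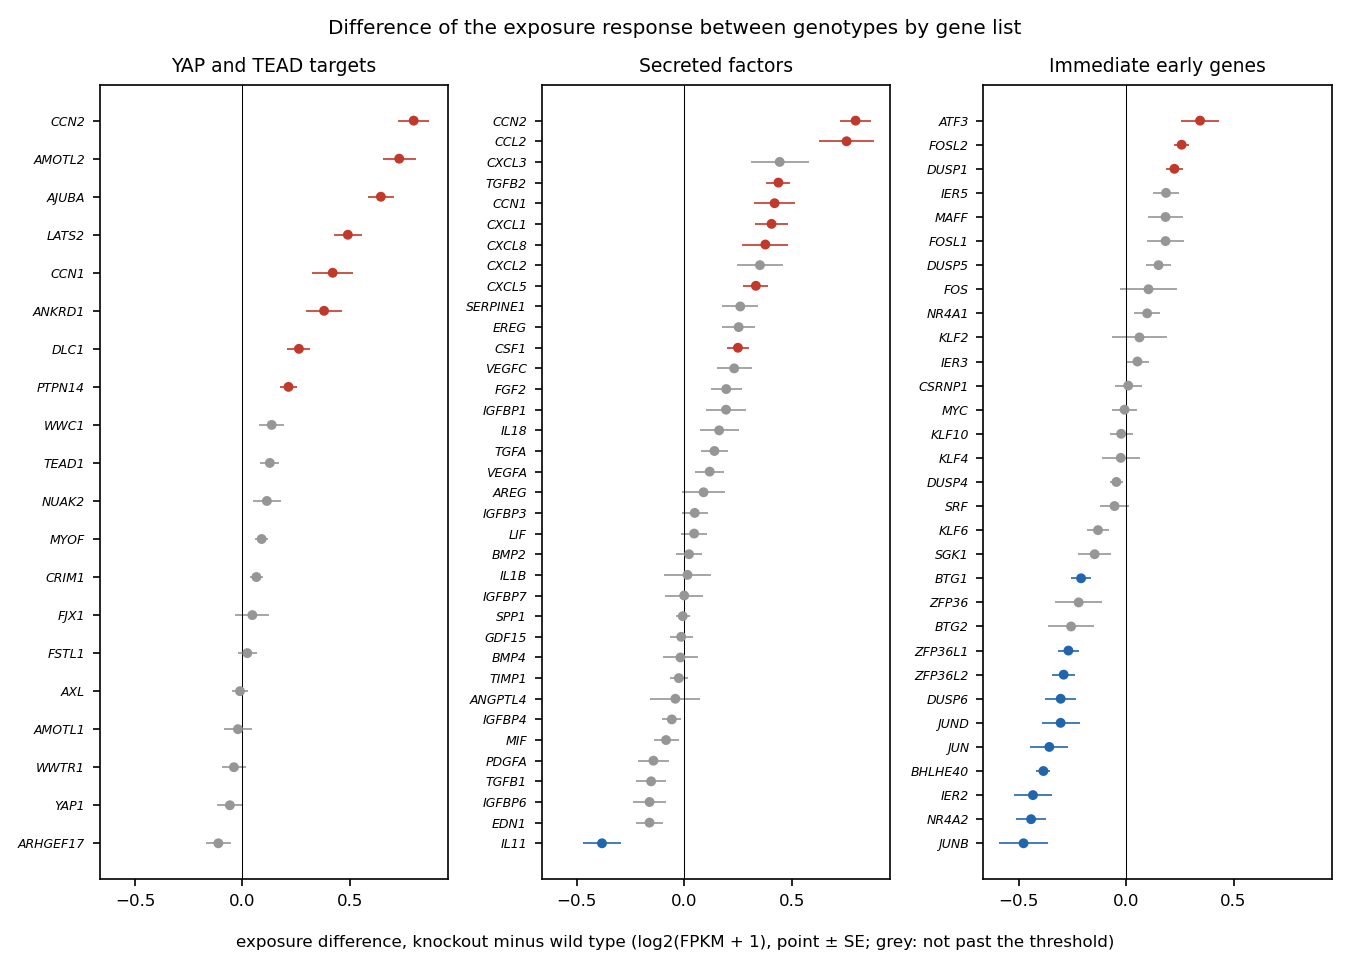
Exposure difference in the knockout minus the wild type, in log2(FPKM + 1) with its SE (x axis), for each tested member of 3 lists, red higher and blue lower in the knockout at an adjusted p under 0.05 and grey not past it. YAP and TEAD targets hold 8 red and 0 blue, secreted factors 8 and 1, and immediate early genes 3 and 10.

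Smaller counts were found elsewhere, each to be read against the 1.98% of all genes that were higher and the 2.45% that were lower. Of 29 NRF2 targets, 3 were higher in the knockout: TXNRD1, the cytosolic thioredoxin reductase, rose by 0.26 in the knockout and did not pass in the wild type (-0.04, difference limma adjusted p = 5.21e-07), NFE2L2 itself rose by 0.80 and 0.62, and SRXN1 fell by less. Of 32 SR splicing proteins and their kinases, SRSF7 (0.28) and SRSF3 (0.23) were higher and the kinase CLK1 (-0.31) lower. Of 34 p53 targets, PLK2 (0.34) was higher and SESN2, BBC3 and CCNG2 lower. SESN2 was also counted in the list of DDIT3 and ATF3, and BBC3 in the BCL2 family. Of 15 BCL2-family genes, the anti-apoptotic BCL2L1 (0.17) was higher, and the pro-apoptotic BBC3 (-0.42), BCL2L11 (-0.26) and BOK (-0.22) were lower, BBC3 and BOK losing the call in 10 and 23 alternative settings. Of 16 Wnt feedback genes, the ligand WNT7B (0.34) was higher and RNF43 (-0.26) and DKK1 (-0.25) lower. Of 35 hypoxia and glycolysis genes, P4HA1 (-0.31) and PFKFB3 (-0.26) were lower (5.71%) and EPAS1 (0.13) higher (2.86%), shares near those of all genes, and EPAS1 lost the call in 14 alternative settings.

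Other programmes held no gene called as different between genotypes. Of 42 S-phase and replication genes, 37 fell in the knockout (33.6% of all genes did) and 38 in the wild type (31.8% of all genes), and 0 differed in limma (5 at an unadjusted p under 0.05). Of 39 proteasome genes, 22 and 24 fell, and 0 differed (2 unadjusted). The 57 cytosolic ribosomal protein genes, 43 nuclear respiratory chain genes, 9 mitochondrially encoded genes and 6 metallothioneins also held 0 called genes (0, 2, 1 and 0 unadjusted). Limma-voom called 1 S-phase gene and 0 in the other 5 lists. Missing the threshold does not show equal responses.

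Outside the lists, CDC42EP2, an effector of the GTPase CDC42, had the smallest p among the genes higher in the knockout that were expressed in both genotypes. CDC42EP2 (NCBI gene 10435, chromosome 11, 65314866 to 65322417) went from 9.00, 8.11 and 8.63 to 19.3, 18.1 and 18.0 FPKM in the knockout, and with D3 from 9.93, 11.8 and 10.4 to 22.8, 19.3 and 22.1 FPKM. The wild type held 4.21, 3.65 and 4.06 FPKM before and 4.40, 4.59 and 4.64 FPKM after, and with D3 3.75, 4.22 and 4.02 FPKM before and 4.30, 4.71 and 4.30 FPKM after. The difference was 0.84 ± 0.065 (SE, limma adjusted p = 6.27e-09), and it was alike in both arms, at 0.87 and 0.81. KCNE4, a potassium channel subunit, rose by 1.03 in the knockout and 0.52 in the wild type. BACH1, a repressor of antioxidant genes, rose in the knockout (0.24) and fell in the wild type (-0.23).

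CDKN2D, an inhibitor of CDK4 and CDK6, showed the largest fall in relative response among genes expressed in both genotypes. CDKN2D (NCBI gene 1032, chromosome 19, 10566460 to 10568979) went from 2.87, 2.44 and 3.34 to 5.00, 4.29 and 3.87 FPKM in the wild type, and with D3 from 2.15, 1.58 and 1.76 to 7.00, 6.36 and 5.33 FPKM. The knockout held 2.55, 2.68 and 3.04 FPKM before and 2.45, 2.03 and 2.39 FPKM after, and with D3 1.50, 1.54 and 2.01 FPKM before and 1.76, 1.89 and 2.04 FPKM after. Unexposed levels of the genotypes overlapped, and the rise passed in the wild type and not in the knockout (0.91 against -0.04, difference -0.95 ± 0.121 SE, limma adjusted p = 1.70e-05).

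FAM214B and SH2B3, a signalling adaptor, fell in the knockout and did not pass in the wild type. FAM214B went from 6.32, 7.28 and 6.61 to 4.86, 4.79 and 4.88 FPKM in the knockout, and with D3 from 11.3, 11.3 and 10.8 to 5.57, 5.67 and 5.53 FPKM, a pooled change of -0.64 against 0.0018 in the wild type. SH2B3 changed by -0.59 and 0.04. YPEL2 rose by 0.53 in the wild type and did not pass in the knockout, at 0.00014.

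RND1, a small GTPase, was called as moving in opposite directions, and its library values qualify that. In the knockout it went from 3.24, 2.80 and 3.31 to 2.84, 2.49 and 2.35 FPKM, and with D3 from 9.80, 8.38 and 9.80 to 4.63, 3.55 and 4.43 FPKM. In the wild type it rose from 4.13, 3.95 and 3.22 to 5.79, 6.54 and 4.61 FPKM without D3, and with D3 the exposed libraries, at 6.52, 6.34 and 5.54 FPKM, lay below the unexposed ones at 6.92, 6.66 and 7.13 FPKM. The wild-type rise of 0.16 (limma adjusted p = 0.0446) therefore came from the arm without D3, while the difference between genotypes passed in both arms, at -0.68 and -0.84.

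Several leading genes were close to silent in 1 genotype, so their difference rests on the other. For 23 called genes (4.30%, against 1.38% of all tested) all 12 wild-type libraries lay under 0.5 FPKM, among them DLC1 and CDH5. For 21 called genes (3.93%, against 0.927% of all tested) all 12 knockout libraries lay under 0.5 FPKM, among them RRAD, IL21R, PNPLA3, SLC1A3, IGDCC4 and SNAI2. IL21R, the interleukin 21 receptor, rose in the wild type from 0.264, 0.151 and 0.196 to 1.46, 1.08 and 0.952 FPKM, and with D3 from 0.772, 1.01 and 0.875 to 4.02, 3.95 and 3.15 FPKM, and in the knockout it stayed at or under 0.0769 FPKM. SLC1A3, a glutamate transporter, stood at 20.5 to 37.0 FPKM in the wild type and at or under 0.0230 FPKM in the knockout. When ratios were tested instead, with limma-voom on whole reads recovered from the FPKM steps, IL21R, RRAD, IGDCC4 and SNAI2 no longer passed (adjusted p = 0.623, 0.860, 0.553 and 0.933) and SLC1A3 turned to 0.40 (adjusted p = 0.756), while PNPLA3 still passed (adjusted p = 0.00427).

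The arms of the design without and with D3 share no library. Without D3, 65 genes differed between genotypes (0.538%), 33 higher (0.273%) and 32 lower (0.265%). With D3 288 did (2.38%), 150 higher (1.24%) and 138 lower (1.14%). Of the 65, 63 had the same sign with D3 (96.9%, against 63.3% of all tested genes), 39 also passed there, and their median of 0.42 became 0.33. Of the 288, 262 had the same sign without D3, 39 also passed, and the median of 0.38 became 0.18. The difference between the arms was itself tested and passed for 2 genes (0.0165%), with 596 at an unadjusted p under 0.05. Counts per arm depended on single libraries. The count without D3 fell to 30 without exposed wild-type replicate 1 and to 43, 39 and 37 without unexposed wild-type replicates 1, 2 and 3. The count with D3 was 504 without exposed wild-type D3 replicate 3, 170 without unexposed knockout D3 replicate 2 and 189 without unexposed wild-type D3 replicate 3.

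**Figure D4:**
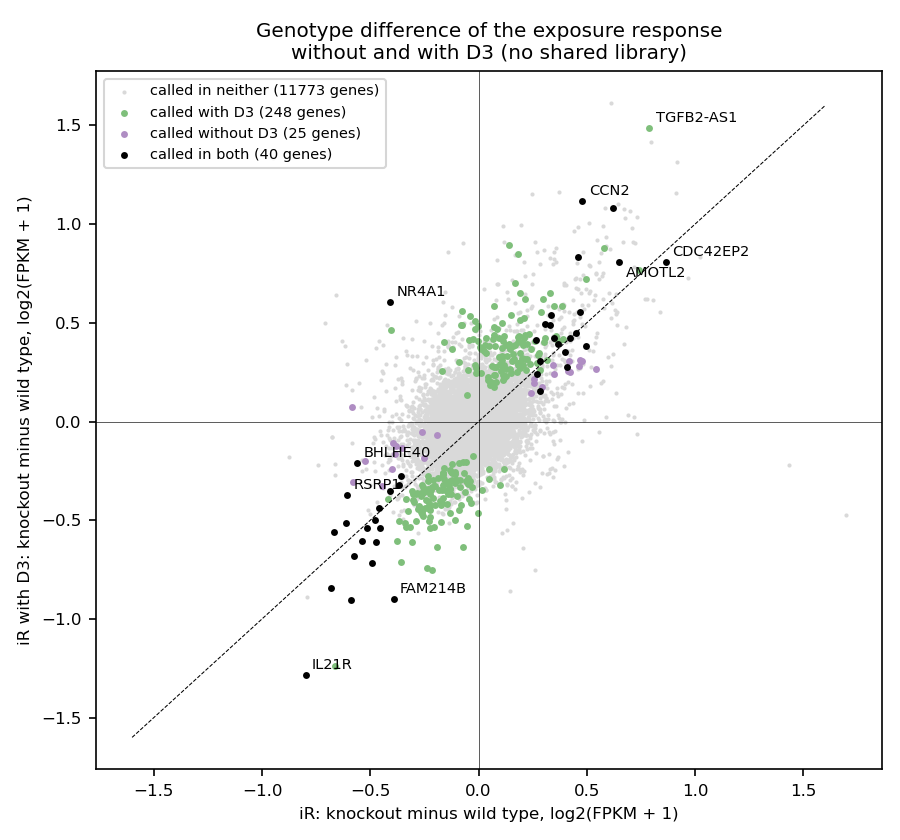
Genotype difference of the exposure response, in log2(FPKM + 1), without D3 (x axis) and with D3 (y axis) for each of the 12086 genes, black where called in both (40 genes, NR4A1 with opposite signs), green with D3 and purple without D3. CCN2, CDC42EP2 and AMOTL2 lie upper right and IL21R and FAM214B lower left, and NR4A1 lies upper left.

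The 2 were NR4A1 and DUSP1. NR4A1, an orphan nuclear receptor of the immediate early class, moved from -0.41 without D3 to 0.60 with it, a change of 1.01 ± 0.124 (SE, limma adjusted p = 2.09e-04). Without D3 it fell in the knockout from 3.16, 3.37 and 3.36 to 1.84, 1.96 and 2.07 FPKM and stood near 1 FPKM in the wild type. With D3 it fell in the wild type from 3.04, 3.27 and 2.90 to 1.43, 1.80 and 1.48 FPKM and held 2.65, 2.71 and 2.59 FPKM before and 2.45, 2.36 and 2.68 FPKM after exposure in the knockout. The pooled difference of 0.10 averages these opposite arms and did not pass (limma adjusted p = 0.429). DUSP1, a MAP kinase phosphatase, differed by -0.02 without D3 and 0.47 with it (limma adjusted p of the change = 0.0226).

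Depth was even, at 31423870 to 35665874 recovered reads per library, and libraries of a group correlated at 0.9899 to 0.998 across genes. Exposed wild-type libraries 2 and 3 with D3 stood furthest from their group, with residual SDs of 0.139 and 0.133 on the log2 scale against 0.0704 to 0.111 in the other 22. The fit without both was added after seeing the data and is among the alternative settings counted elsewhere. It leaves a single library in that group, so only effect sizes are given for it here. The median difference of the YAP and TEAD targets was then 0.124. That of secreted factors was 0.118, of NF-kB targets 0.055, of immediate early genes -0.077 and of cholesterol genes -0.098. Leaving out only replicate 3 of that group gave 1052 called genes. KRT8 and KRT18, keratins of A549, ran from 892 to 1266 and from 726 to 962 FPKM. Of the other general epithelial markers, KRT7 ran from 226 to 458 FPKM and CDH1 from 18.5 to 45.5 FPKM. EPCAM was low, at 0.402 to 1.85 FPKM, and KRT19 ran from 0.0194 to 22.8 FPKM. The alveolar genes NKX2-1, SFTPC, SFTPB and AQP5 lay at or near 0, as did PECAM1 and COL3A1 of other cell types. Of 3 leukocyte markers found, CD68 ran from 23.7 to 39.6 FPKM, and PTPRC and LYZ reached at most 0.0411 and 0.0363 FPKM. The 6 fibroblast markers summed to 0.514 to 4.40 FPKM and the 4 endothelial markers to 0.0253 to 1.32 FPKM. Of these, COL1A1 and CDH5 were called lower in the knockout (CDH5 at or under 0.0334 FPKM in the wild type). Limma-voom called neither (adjusted p = 0.145 and 0.217). COL1A1 also lost the call with 0.1 added to FPKM in place of 1 (limma adjusted p = 0.114). The part of these markers in the results was not tested. Mitochondrially encoded genes took 12.0% to 13.3% of FPKM in the knockout groups and 9.33% to 10.0% in the wild type.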

How the data were processed

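Polyadenylated RNA was sequenced from paired ends, per the labels' protocols. The authors deposited FPKM for 26801 genes, made with fastp, HISAT2 and HTSeq on GRCh38 per the submitters' processing notes. No source used here gives the annotation, gene lengths or strand setting. The 6 further columns of values that matched no sample were not used. The 12086 genes that reached 1 FPKM in 3 or more libraries were tested on log2(FPKM + 1), a pseudocount of 1, with limma 3.58.1 in R 4.3.3: 10 groups in 1 fit, 20 residual degrees of freedom, mean-variance trend, Benjamini-Hochberg over all genes, two-sided. FPKM does not remove composition differences, so other scalings were tried. FPKM steps gave whole reads (tolerance 0.01) for 26780 genes, and limma-voom on them was added as an alternative. The 28 lists hold 902 names, of which 9 of 868 distinct ones were not matched. Members and lists were chosen with earlier results of these data known. Named genes are the 15 largest differences each way with 2 FPKM in 1 group and equal sign in both arms, the 5 largest of opposite direction, those whose D3 difference passed, and up to 4 per list with at least 3 called, besides list members, heat shock genes and regulators given as context. Positions and promoters are RefSeq GRCh38.p14 (25764 genes found). A few named genes are not reported here. Scripts were tested on simulated data.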

Additional observations from a re-analysis of the deposited data

Results flagged for a closer look

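The exposure response differed between the genotypes for 535 genes, by a test of the interaction. Of the genes that rose in 1 genotype and fell in the other, the 5 with the largest difference were RND1 (-0.76), KLC2-AS1 (0.73), B4GALT4-AS1 (0.70), UBALD2 (-0.57) and BAMBI (-0.54), in log2(FPKM + 1). KLC2-AS1 and B4GALT4-AS1 stood under 2 FPKM in every group mean, and KLC2 and B4GALT4, which they overlap, did not pass. The genotype difference itself changed with D3 for NR4A1 (1.01) and DUSP1 (0.48).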

How the results depend on the processing

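Of 76 named genes that passed, 54 passed with the same sign in every alternative, 8 lost the call in 1 or 2 and 14 in 3 or more. These alternatives include the fit that leaves a single exposed wild-type D3 library in its group. The pooled count of 535 was 457 and 502 with pseudocounts of 0.1 and 0.5, 536 without a filter, 383 with at least 5 FPKM, 532 with median-of-ratios and 509 with quantile scaling, 387 with 8 groups only, 542 without the trend and 473 with limma-voom. The count without D3 (65) was 40 with a pseudocount of 0.1, 38 with 8 groups only and 108 without the 2 exposed wild-type D3 libraries that stand apart, an alternative added after seeing the data, and that with D3 (288) was then 173. The D3 difference (2 genes) gave 8 without a filter and 1 with at least 5 FPKM, with median-of-ratios and with quantile scaling. Leaving out 1 library each gave 404 to 1052 pooled (highest without exposed wild-type D3 replicate 3), 30 to 92 without D3 (lowest without exposed wild-type replicate 1), 170 to 504 with D3 (lowest without unexposed knockout D3 replicate 2), 1 to 6 for the D3 difference, 5962 to 6635 for exposure in the knockout, 5427 to 6173 in the wild type, 8966 to 9322 for genotype unexposed and 9045 to 9352 exposed. SLC1A3 turned to 0.398 with limma-voom (adjusted p = 0.756), and SH2B3 reached -1.18 there. With median-of-ratios and quantile scaling, the wild-type exposure split of 2138 higher and 3841 lower became 2632 and 2907, and 2587 and 3014, and the D3 split of 150 and 138 became 120 and 177 with the first. A replicate block gave 555 genes, but same-numbered libraries deviated together in only 27 of 84 pairs (r over 0.1; range -0.45 to 0.34, median 0.02), so the numbers were not taken as pairs. The cause of these changes was not tested. Genes near 0 and overlapping antisense genes are limited by depth and by the unknown strand setting.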

Other observations

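Exposure was also applied to knockout cells without the title part iR, which enter no contrast above. There, CCN1 changed by 2.92, CCN2 by 2.60, AMOTL2 by 2.57, AJUBA by 1.81 and LATS2 by 1.51 in log2(FPKM + 1), and CDC42EP2 by 1.14. FAM214B changed by -0.95, SH2B3 by -0.61, RND1 by -0.53, BAMBI by -0.39 and CDKN2D by -0.16. RSRP1 ran from 2.09 to 2.70 FPKM in those 6 libraries. No wild type without iR was analysed here, so no genotype difference can be given for them.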
